A study of Mus musculus with 6 samples.

Results

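The Sox9/Kcnj locus lies on mouse chromosome 11, and a duplication there was examined in mice that lack the domain boundary inside it. The comparison was Dup-LdeltaBor over deltaBor, with 1 capture Hi-C library per genotype out of the 6 genotypes mapped, all from limb buds of embryos at E12.5. The deltaBor genotype carries a deletion of the boundary, and Dup-LdeltaBor carries the same deletion together with the duplication called Dup-L, so the deletion is shared by both libraries and the duplication separates them. The side comparison, Dup-L over WT, is the same duplication with the boundary in place. The sources used here do not give the zygosity of the alleles, the orientation of the duplicated copies or the number of embryos per library. Limb buds are a mixed tissue, so each map is an average over its cell types.

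Capture Hi-C joins DNA ends that are near each other in fixed nuclei, pulls out the joined fragments of a targeted region with probes, and scores every sequenced pair as a contact between bins. Chromosomes fold into topologically associating domains, within which contacts are frequent, and boundaries between domains, many of them bound by CTCF, limit contacts from one domain to the next. At this locus a boundary lies between a domain holding the potassium channel genes Kcnj2 and Kcnj16 and a domain holding Sox9, a transcription factor needed for cartilage and testis development, along with the long gene-poor stretch that carries Sox9 enhancers. As published, the Dup-L duplication spans the boundary but includes neither Kcnj2 nor Sox9. No gene is given a position here, because no mm9 annotation was used.

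The duplicated segment runs from 110960001 to 112520000 on chromosome 11 (mm9), which is 1560 kb or 156 of the 587 bins of 10 kb in the map. The 3 bins from 111380001 to 111410000 that overlap the deletion were left out, which kept 153 bins. On the centromeric side of the deletion the segment keeps 420 kb from 110960001 to 111380000 (42 bins), called P here. On its telomeric side it keeps 1110 kb from 111410001 to 112520000 (111 bins), called Q. The centromeric flank is the 1950 kb from 109010001 up to the segment, and the telomeric flank is the 2360 kb from its end to 114880000.

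The raw maps held 6337918 contacts in deltaBor and 8965219 in Dup-LdeltaBor, and contacts were present in 94.2% and 93.8% of the 172578 pairs of bins. Folds compare 2 contact counts after scaling on pairs with both bins in the same flank, at least 2 bins apart, and contacts between nearer bins were left out of every fold. The scaling factor was 0.915, with 0.953 from the centromeric flank alone and 0.887 from the telomeric flank alone, so the flanks differed by 7.47%. Each fold carries an exact (Clopper-Pearson) 95% binomial interval that covers counting error only, with no part for the scaling. With 1 library per genotype there is no spread between animals and no test was possible, so every difference below compares these libraries.

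The libraries matched their labels at the duplication, while the deleted bin still held some contacts in Dup-LdeltaBor. The ends of the segment had been set earlier from Dup-L and WT, so the libraries compared here are separate from those that placed it. Contacts within a single bin, relative to the median of the flanks, were a median of 2.32 times as high in Dup-LdeltaBor as in deltaBor over the 153 bins (range 1.31 to 3.47; 2.43 in P and 2.29 in Q). In 152 of the 153 bins this ratio was above the highest of any flank bin, 1.52. The sum of a bin's contacts gave 2.41 (1.70 to 2.74), with all 153 bins above the flank maximum of 1.14. The step at the centromeric end was within a single bin: the 3 bins outside had ratios of 1.02, 0.913 and 0.904, and the 3 inside had 3.13, 2.80 and 2.89. At the telomeric end the 3 bins inside had 2.92, 2.28 and 1.68 in order toward the end, and the 3 beyond it had 0.630, 0.754 and 0.891.

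In the bin wholly inside the deletion, 111390001 to 111400000, deltaBor had 0 contacts, which allows up to 3 counts. Dup-LdeltaBor had 1839, of them 82 within the bin, spread over 388 partner bins. After scaling on the flanks this was 7.25% of the WT level of 28639 contacts (95% interval 6.91 to 7.60%). Of those contacts that lay at least 2 bins away, 22.2% went to the centromeric flank, 9.53% to P, 43.5% to Q and 24.7% to the telomeric flank. The same shares were 22.0%, 10.5%, 42.3% and 25.1% in WT, all inside the intervals of the Dup-LdeltaBor shares, and 13.9%, 15.7%, 55.1% and 15.3% in Dup-L, all outside them. The source of these contacts was not tested. With the WT map subtracted from Dup-LdeltaBor at the unscaled level of this bin, 6.42%, a step chosen after the values were seen, P with Q stood at 5.96-fold and the flanks with each other at 0.476-fold, against 5.57 and 0.498 as deposited.

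Of the contacts inside the segment, those between P and Q had the highest fold. Dup-LdeltaBor had 680850 contacts between them and deltaBor had 111793, which is 5.57-fold higher after scaling (5.54 to 5.61). Contacts within P were 303510 against 109841, or 2.53-fold higher (2.51 to 2.54). Contacts within Q were 1904081 against 658176, or 2.65-fold higher (2.64 to 2.65). The folds within P and within Q lay near the single-bin ratio of 2.32, whereas the fold between P and Q was 2.15 times the geometric mean of the other two, a quantity that is the same under any scaling factor. It does not match separations, and pairs between P and Q reach larger separations than pairs within P or within Q. At matched separations, the P with Q fold over the Q with Q fold was 1.07 at 20 to 100 kb. It was highest at 800 to 900 kb, at 1.76, and was 1.41 at 1000 to 1100 kb. In the KR-normalised maps, where each bin's total is made equal, P with Q was still higher at 1.85, while P with P at 0.815 and Q with Q at 0.944 lay below 1. The ratio of P with Q to the other folds was 2.10 there. The direction within P and within Q thus depends on whether the maps are balanced. On raw counts scaled to library totals these folds were 1.69 and 1.77. The map covered 1653 blocks of 100 kb by 100 kb, of which 28.9% (477) were at least 1.5-fold higher and 17.3% (286) at least 1.5-fold lower. Higher and lower blocks numbered 40 and 295 in the KR-normalised maps, and 111 and 565 on library totals. All 44 blocks between P and Q were higher, with a median fold of 6.08 and a range of 2.80 to 14.6, and so were the 10 blocks within P (median 2.50) and the 66 within Q (median 2.88). Blocks with both ends in the same flank gave 0 of 466 past 1.5-fold in either direction. These blocks hold the pairs used for scaling, so the scaling itself sets their folds near 1 (median 1.04). Their count is therefore not an independent background.

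**Figure D1:**
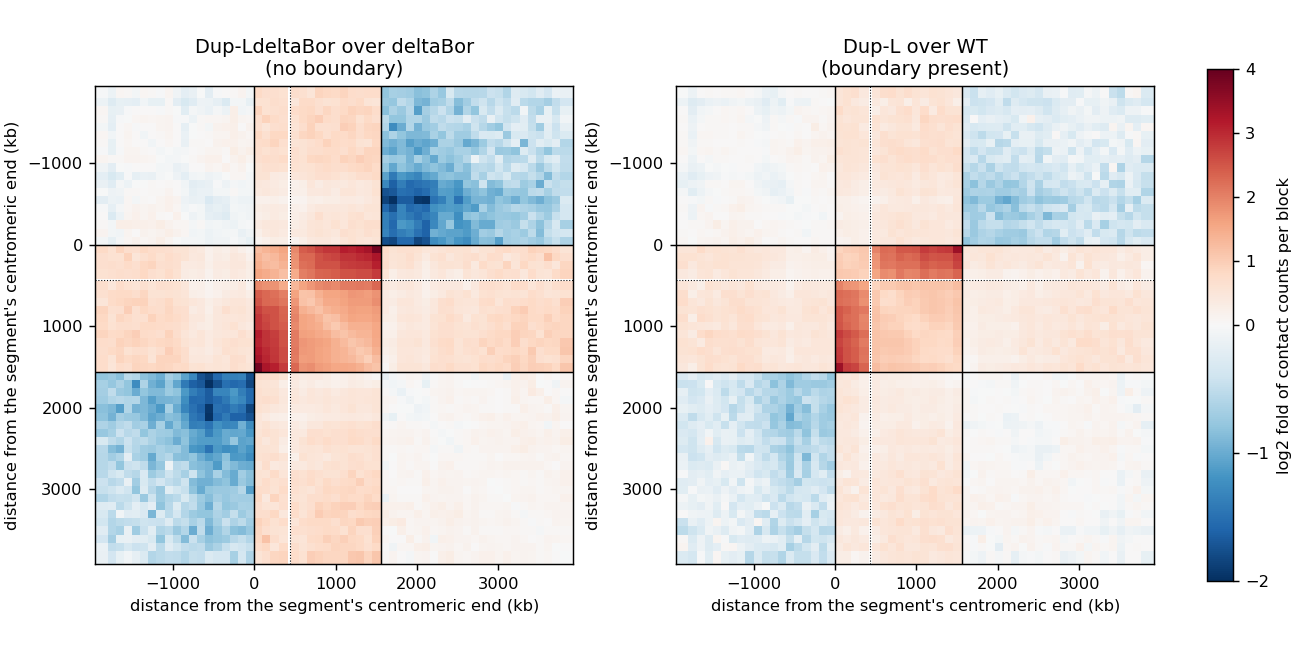
Fold of contact counts per block of 100 kb by 100 kb, as log2 on a colour scale, for Dup-LdeltaBor over deltaBor (left) and Dup-L over WT (right), with both axes in kb from the centromeric end of the segment; solid lines mark its ends and the dotted line the left-out bins. The reddest rectangle is P with Q, where all 44 blocks were at least 1.5-fold higher in both panels, and the blue rectangle is flank with flank, with 286 of 437 blocks at least 1.5-fold lower on the left and 78 on the right.

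The highest block fold lay at the corner where the far ends of the segment meet. The block of 110960001 to 111060000 with 112410001 to 112520000 joins the first stretch of P to the last stretch of Q, and held 24365 contacts in Dup-LdeltaBor against 1527 in deltaBor, 14.6-fold higher (13.9 to 15.4). The next were the first stretch of P with 112310001 to 112410000 (9.96-fold), the second stretch of P, 111060001 to 111160000, with the last of Q (9.62-fold), and the first of P with 112210001 to 112310000 (9.26-fold) and with 112010001 to 112110000 (8.76-fold). All 5 highest blocks of the map thus lay between P and Q and used the outer 200 kb of P. The lowest blocks between P and Q lay across the deletion: 111260001 to 111380000 with 111410001 to 111510000 held 40834 contacts against 13341, 2.80-fold higher (2.75 to 2.85), and the next 2 with that Q stretch were 3.46-fold and 3.55-fold.

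In a tandem duplication the end of a copy adjoins the start of the next, so the corner formed by both ends of the segment was read separately. Between exactly the first and last 100 kb there were 22604 contacts in Dup-LdeltaBor and 1403 in deltaBor, 14.7-fold higher (14.0 to 15.6). With the first and last 50 kb the fold was 18.3 (16.5 to 20.3), and with 200 kb it was 10.7, so it was higher the nearer the ends. In the KR-normalised maps the 100 kb corner was 4.63-fold higher. On the level scale, the 100 kb corner held 207 scaled contacts per bin pair in Dup-LdeltaBor and 14.0 in deltaBor. For comparison, 40 pairs of neighbouring 100 kb stretches in the deltaBor flanks held a median of 158 per pair, with a range of 48.6 to 241. Stretches inside the segment were not part of this yardstick. At 100 to 200 kb, deltaBor held 123 contacts per pair within Q and 96.5 within P. The centromeric and telomeric flanks held 93.6 and 96.8. The 50 kb corner, at 284 per pair, also lay inside the range of neighbouring 50 kb stretches in the deltaBor flanks (73.5 to 416). The 200 kb corner, at 156, lay above the range of neighbouring 200 kb stretches in these flanks (30.8 to 143). The orientation of the copies was not tested.

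**Figure D2:**
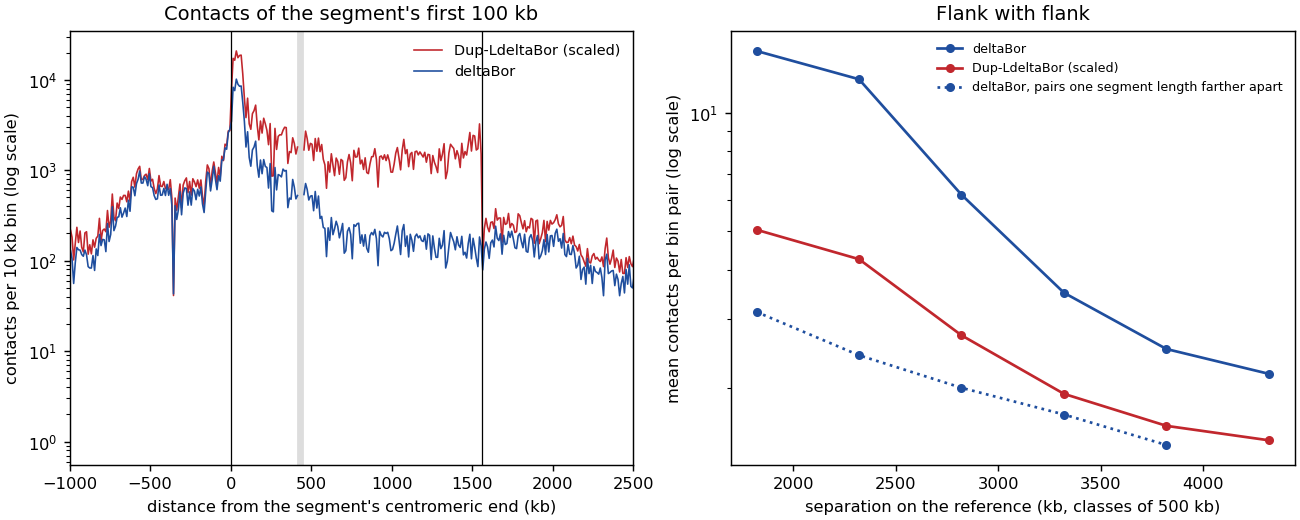
Left, contacts per 10 kb bin (log scale) of the first 100 kb of the segment, by distance from its centromeric end, in deltaBor and in Dup-LdeltaBor after scaling; vertical lines are the segment's ends and grey the left-out bins. The red line climbs toward the telomeric end, where the last 100 kb gave 14.7-fold, and falls back just beyond it. Right, mean contacts per bin pair between the flanks (log scale) by separation, where Dup-LdeltaBor (5.05 in the nearest class) lies between deltaBor (14.4) and deltaBor pairs a segment length farther apart (3.12).

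Folds changed in a regular way along the segment. From the outer end of P to the deletion, the 4 stretches of P had folds with Q of 7.08, 6.01, 5.56 and 4.54. From the deletion to the outer end of Q, the folds of its 11 stretches with P were 3.23 next to the deletion, 6.09 in the sixth and 9.54 in the last, with each stretch at least as high as the one before. Folds within P were nearly even, at 2.51 to 2.65. In Q, the stretch beside the deletion, 111410001 to 111510000, had a fold with Q of 3.60, above the 2.51 to 2.82 of the other 10 stretches. This stretch also stood apart in deltaBor, where it had 29006 contacts with P, the most of any Q stretch, and 63686 with Q, the fewest.

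**Figure D3:**
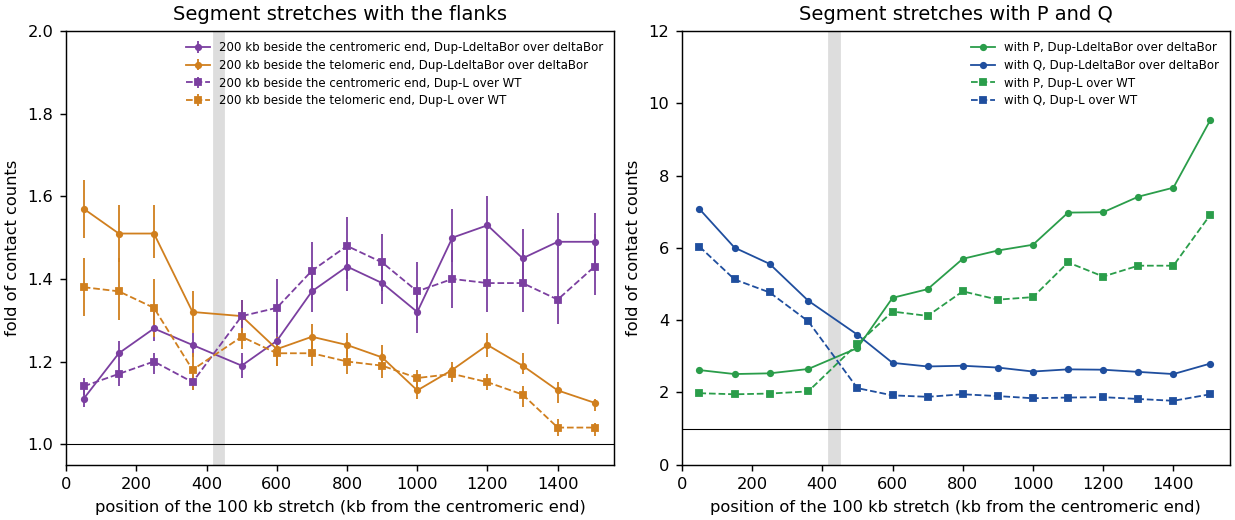
Fold of contact counts of each stretch of about 100 kb of the segment, by its position in kb from the centromeric end, with the 200 kb of flank beside each end (left, with 95% counting intervals) and with P and Q (right); solid lines are Dup-LdeltaBor over deltaBor, dashed lines Dup-L over WT, and grey marks the left-out bins. Folds with Q fall from 7.08 to 4.54 across P, and folds with P climb from 3.23 to 9.54 across Q.

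Folds within the segment increased with separation. For pairs within Q the fold was 2.21 at 20 to 100 kb, 3.10 at 400 to 500 kb and 4.00 at 900 to 1000 kb, and it reached 5.19 (4.95 to 5.44) at 1000 to 1100 kb on 11966 against 2109 contacts. Within P it went from 2.36 at 20 to 100 kb to 3.08 at 300 to 400 kb. Between P and Q it was 2.37 at 20 to 100 kb, 4.46 at 400 to 500 kb, 6.76 at 900 to 1000 kb and 19.0 (17.0 to 21.3) above 1500 kb, the last on 6640 against 320 contacts. From 20–100 kb to 900–1000 kb the fold thus grew 1.81 times within Q and 2.86 times between P and Q. The flanks with themselves gave 1.09 and 1.10 over the same separations, and the KR-normalised maps, in which every bin has the same contact sum, gave 1.73 within Q and 2.88 between P and Q.

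**Figure D4:**
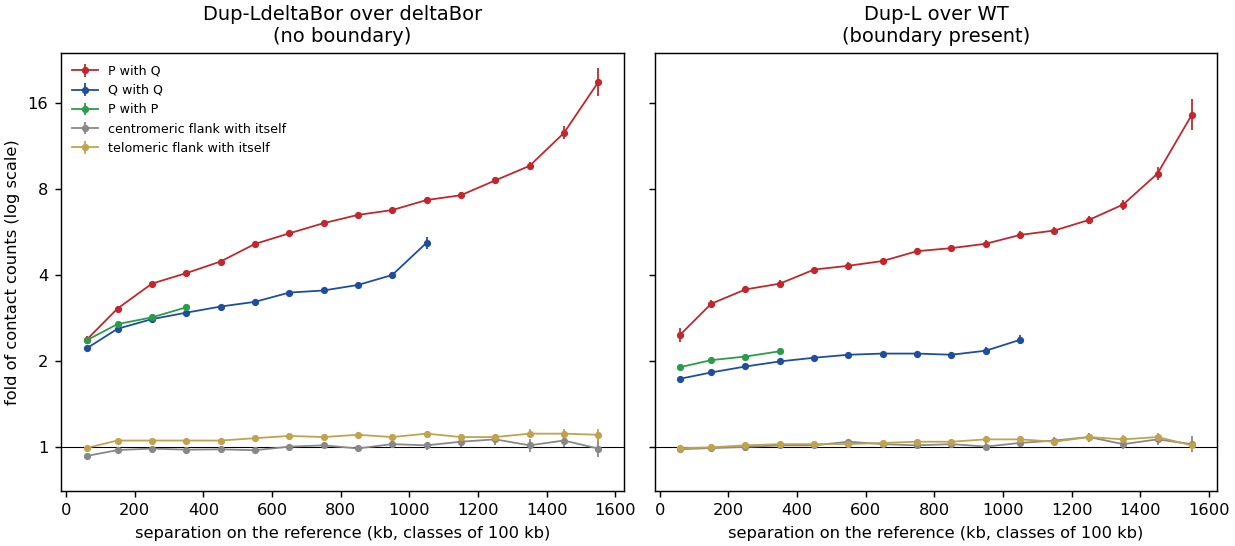
Fold of contact counts (log scale) by separation on the reference in classes of 100 kb, for pairs between P and Q, within Q, within P and within each flank; left, Dup-LdeltaBor over deltaBor, and right, Dup-L over WT, with bars for 95% counting intervals. Between P and Q the fold climbs from 2.37 to 19.0 on the left and from 2.47 to 14.6 on the right, and within Q from 2.21 to 5.19 and from 1.73 to 2.37.

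As levels rather than folds, the extra contacts of the segment, pooled over all its pairs, hardly depended on separation at intermediate distances. Over all pairs inside the segment, the scaled level in Dup-LdeltaBor minus the level in deltaBor was 365 contacts per pair at 20 to 100 kb, 150 at 200 to 300 kb and 108 at 600 to 700 kb. From there to 1200 to 1300 kb it stayed between 106 and 110, while the deltaBor level itself went from 35.2 to 14.5. Above 1500 kb the difference was 273. In deltaBor, pairs at the complementary separation, that is the segment's length minus the separation, had 25.3 contacts per pair for the 600 to 700 kb class, 66.9 for the 1200 to 1300 kb class and 317 for the class above 1500 kb. The complementary level in deltaBor was therefore below the difference in each class under 1500 kb and above it beyond 1500 kb. The comparison is not like for like, because the difference also holds contacts within the added copy at the separation itself. In deltaBor the level at that separation was 295 per pair at 20 to 100 kb and 15.6 above 1500 kb. How the copies are arranged was not tested.

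Levels between P and Q were nearer to those within Q with the duplication than without it. In Dup-LdeltaBor the map cannot tell contacts across the lost boundary from contacts across any joint between the copies. At matched separations from 20 to 1100 kb, the level per pair between P and Q was 41.8% to 67.3% of that within Q in deltaBor and 61.5% to 79.9% in Dup-LdeltaBor, higher in Dup-LdeltaBor in each of the 11 classes. At 700 to 800 kb, for example, the levels were 20.2 between P and Q and 43.6 within Q in deltaBor (46.3%), and 123 and 154 in Dup-LdeltaBor (79.7%).

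The shares of contacts by partner, which need no scaling, shifted toward the pairing of P and Q. Of the contacts of P in deltaBor, 40.2% went to the centromeric flank, 23.1% to Q, 22.7% to P itself and 14.1% to the telomeric flank. In Dup-LdeltaBor Q took 49.8% of the contacts of P, P took 22.2% and the telomeric flank 7.94%, and the centromeric flank held 273743 of the 1366565 contacts. For P, the largest partner was thus the neighbouring flank in deltaBor and Q in Dup-LdeltaBor. In the KR-normalised maps the share with Q was 21.2% and 38.2%. Of the contacts of Q, the share with P was 7.78% in deltaBor and 19.0% in Dup-LdeltaBor, that with Q itself 45.8% and 53.2%, that with the telomeric flank 31.6% and 18.7%, and that with the centromeric flank 14.8% and 9.12%. The KR-normalised maps gave the share of Q with P as 9.08% and 17.1% and that with the telomeric flank as 31.4% and 26.8%, but that with Q itself went the other way, at 43.3% and 41.6%.

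Contacts of the segment with its flanks were higher by less than those inside it. Contacts of P with the centromeric flank, its neighbour, were 273743 in Dup-LdeltaBor against 194844 in deltaBor, 1.28-fold higher, and with the telomeric flank 1.46-fold higher. Those of Q were 1.40-fold higher with the centromeric flank and 1.35-fold higher with the telomeric flank, its neighbour (669279 against 454222). Over whole flanks both P and Q thus had the lower fold with the flank they adjoin, but this order was not general: beyond 1000 kb P had 1.64 with the adjoining and 1.57 with the other flank, and at 500 to 1000 kb Q had 1.42 with the adjoining and 1.31 with the other. Folds with the adjoining flank were lowest near the ends: 1.20 for P with the adjoining 200 kb and 1.18 for Q with the adjoining 200 kb, against 1.64 and 1.65 with the same flanks beyond 1000 kb. Of the blocks joining the segment to a flank, 40 of 76 (P, centromeric), 120 of 209 (Q, centromeric), 46 of 92 (P, telomeric) and 151 of 253 (Q, telomeric) were at least 1.5-fold higher and 0 were lower. Over all blocks of the map, 28.9% were higher. The median fold of each class lay close to the threshold, at 1.55 or less, so these counts depend on where it was set. The folds of P and Q with whole flanks lie below 1 in the KR-normalised maps, at 0.778 to 0.880. On library totals they also lie below 1, at 0.862 to 0.977, so their direction depends on the scaling.

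Contacts from flank to flank, across the segment, were lower. Dup-LdeltaBor had 102348 and deltaBor had 188082, a fold of 0.498 (0.494 to 0.501). The 200 kb beside the ends had 0.326 (0.311 to 0.342) with each other, stretches at 200 to 500 kb from the ends 0.387, those at 500 to 1000 kb 0.421 and those beyond 1000 kb 0.732. Of 437 flank-to-flank blocks, 286 were at least 1.5-fold lower and 0 higher, with a median of 0.606. At this scaling these 286 were all of the lower blocks in the map. On library totals the map held 565 lower blocks, more than the 437 from flank to flank. Of the 5 lowest blocks, 4 held 110360001 to 110460000. The lowest joined it to 112620001 to 112720000, with 584 contacts against 2370, a fold of 0.225 (0.206 to 0.247). By separation on the reference, the flank-to-flank level was 5.05 scaled contacts per pair in Dup-LdeltaBor and 14.4 in deltaBor at 1570 to 2070 kb, and 1.60 and 2.51 at 3570 to 4070 kb. The deltaBor level a segment length farther on was 3.12 and 1.43 in these classes, and in the 5 classes from 1570 to 4070 kb the Dup-LdeltaBor level lay between both deltaBor levels. The farther level averages all flank-to-flank pairs at the longer separation, so it comes from other positions. In the farthest classes only bins near the outer ends of the map can form such pairs.

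The insulation score averages the contacts that cross a bin within a diamond of 500 kb, as log2 over the map's mean, and is low where few contacts cross. At the lost boundary bin it was -0.50 in deltaBor and 0.71 in Dup-LdeltaBor, a difference of 1.21 (1.20 to 1.22). The difference in the KR-normalised maps was 0.44, and 0.17 with a 200 kb diamond. Inside the segment deltaBor had 1 minimum with a prominence of at least 0.3, at 111500001 to 111510000 (score -0.66, prominence 1.23), inside the Q stretch that stood apart above. The WT minimum lay elsewhere, at 111370001 to 111380000 (score -1.61, prominence 2.19). Dup-LdeltaBor had 0 such minima inside the segment and scored 0.80 at that bin. With a 200 kb diamond a minimum at the same bin was present in both libraries, with a prominence of 1.15 in deltaBor and 0.40 in Dup-LdeltaBor. Because the raw score is taken over the map's mean, which the duplication raises, it was lower in Dup-LdeltaBor throughout the flanks, with median differences of -0.76 (centromeric) and -0.66 (telomeric) over bins at least 500 kb outside the segment. The raw differences at its ends, -0.44 (-0.29 against 0.15) and -0.40 (0.10 against 0.51), were smaller than those. In the KR-normalised maps the flanks differed by medians of -0.02 and -0.00 over the same bins. The ends differed there by -0.43 (centromeric) and -0.32 (telomeric). The drop from deltaBor to Dup-LdeltaBor was thus larger at the ends than in these flank bins in the KR-normalised maps, and not in the raw ones.

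**Figure D5:**
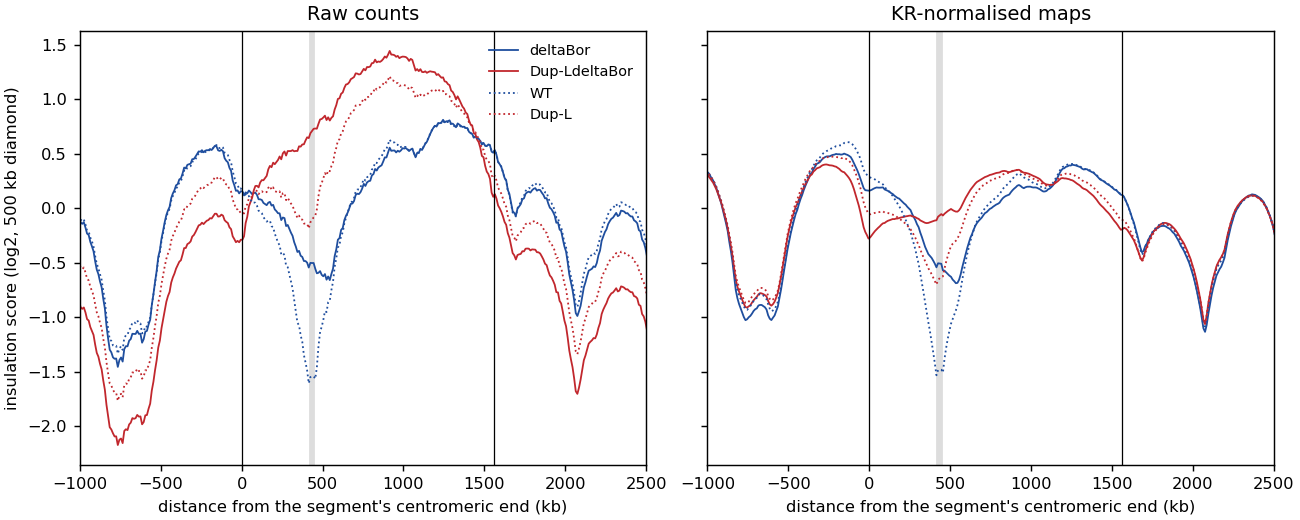
Insulation score (log2, 500 kb diamond) by distance in kb from the centromeric end of the segment in the 4 libraries, on raw counts (left) and KR-normalised maps (right); vertical lines mark the segment's ends and grey the left-out bins. In deltaBor (solid blue) the score dips to -0.66 inside the segment on raw counts, whereas Dup-LdeltaBor (solid red) stands at 0.80 there. Dup-LdeltaBor lies below deltaBor across the flanks on raw counts, by a median of -0.76 and -0.66, and near deltaBor there on the right, where it is lower by -0.43 and -0.32 at the ends.

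The same duplication with the boundary present, Dup-L over WT, uses other libraries throughout and gave smaller raw folds in the segment. The ends of the segment had been set from Dup-L and WT, so their values in the segment are not independent of how it was placed. The fold between P and Q was 4.79 (4.75 to 4.83) against 5.57 without the boundary, that within P 1.96 against 2.53, and that within Q 1.87 against 2.65. The 100 kb corner had 10.9 (10.2 to 11.5) against 14.7, and flank to flank 0.726 (0.721 to 0.731) against 0.498. The single-bin ratio of the segment was itself lower, with a median of 1.77 against 2.32, and its part in these differences was not tested. In Dup-L over WT that ratio ranged from 0.910 to 1.95, and 0 of the 153 bins lay above the flank maximum of 2.76. That maximum lay far from most flank bins, whose 5th to 95th percentiles were 0.824 to 1.07. For the sum of a bin's contacts, all 153 lay above the flank maximum of 1.06. Relative to P with P and Q with Q, the fold between P and Q was higher with the boundary (2.50) than without it (2.15), and in the KR-normalised maps the same quantity was 2.46 and 2.10. At matched separations, the P with Q fold over the Q with Q fold was 1.43 to 2.37 with the boundary and 1.07 to 1.76 without it. The order of several plain folds turned in the KR-normalised maps: P with Q was 2.26 with the boundary and 1.85 without it, P with P 0.884 and 0.815, Q with Q 0.953 and 0.944, and the 100 kb corner 5.01 and 4.63. At least 1.5-fold higher were 231 blocks (14.0%) with the boundary and lower were 78 (4.72%), with 44 of 44 higher between P and Q (median 4.80) and 66 of 66 within Q (median 1.95).

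The folds within Q also depended less on separation with the boundary present. There, the fold within Q was 1.73 at 20 to 100 kb, 2.05 at 400 to 500 kb and 2.17 at 900 to 1000 kb, an increase of 1.26 times, against 1.81 times without it (1.23 against 1.73 in the KR-normalised maps). Between P and Q the increase was 2.09 times with and 2.86 times without the boundary. The level between P and Q as a percentage of that within Q was 21.1% to 27.1% in WT and 32.7% to 63.3% in Dup-L. Dup-L thus stayed below Dup-LdeltaBor (61.5% to 79.9%) in each of the 11 separation classes. Q took 36.8% of the contacts of P in Dup-L against 14.9% in WT. At the boundary bin the insulation score was -1.55 in WT and -0.11 in Dup-L, a difference of 1.44 (1.43 to 1.46). Whether any of these differences between the 2 comparisons exceeds the variation between animals cannot be told from 1 library per genotype.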

How the data were processed

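Per the labels' protocols, limb bud cells were fixed with paraformaldehyde and captured with custom SureSelect probes, with amplification before and after capture. The submitters' processing notes name Bowtie2 2.2.6 and the build mm9. The sources used here do not give the pair filtering, the removal of duplicates or the balancing tool, and duplicates left in would make the intervals too narrow. The authors deposited raw contact counts per pair of 10 kb bins (mapping quality 30 in the names), which were the main values. The authors also deposited KR-normalised signal maps of the same libraries, used as a check: balancing gives every bin the same sum, and so divides out a gain shared by all contacts of a bin. Counts were summed per region and scaled on same-side flank pairs with Python 3.11.15, numpy 2.4.6 and scipy 1.17.1, and tested on simulated data. The 4 libraries held 6337918 to 8965219 contacts. For a count of 0, up to 3 counts are allowed. The regions, lists and thresholds were chosen with earlier results of these data known. Named regions were P, Q, the flanks, the corners, and the 5 highest and 5 lowest blocks with at least 50 counts in both libraries, plus the 3 highest and 3 lowest between P and Q. The alternatives were KR-normalised maps, library totals, each flank alone, pairs at least 10 bins apart, equal weight per separation, low-coverage bins or 2 more bins beside the deletion left out, 3 bins at each end left out, other corner sizes, a 200 kb diamond, and other block thresholds.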

Additional observations from a re-analysis of the deposited data

Results flagged for a closer look

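The bin wholly inside the deletion, which was left out of the region and block folds, held 1839 contacts in the library labelled Dup-LdeltaBor and 0 in deltaBor. It is named because a signal stood in data left out of those folds while the control had none. The contacts were 0.021% of the library and, relative to the median of the segment, 2.85% of the level in Dup-L.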

How the results depend on the processing

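The folds depend on how the maps are scaled, which 1 library per genotype cannot settle. In the KR-normalised maps P with Q was 1.85, P with P 0.815, Q with Q 0.944, flank with flank 0.538 and the corner 4.63, so that the folds within P and within Q fell on the other side of 1. P and Q with the centromeric flank were 0.778 and 0.880 there, and with the telomeric flank 0.842 and 0.838. Scaled to library totals, P with Q was 3.73, P with P 1.69, Q with Q 1.77, flank with flank 0.334 and the corner 9.88, with P and Q at 0.862 and 0.941 for the centromeric and 0.977 and 0.904 for the telomeric flank. The centromeric flank alone gave 5.81, 2.63, 2.76 and 0.519 for P with Q, P with P, Q with Q and flank with flank, and the telomeric flank alone 5.40, 2.45, 2.57 and 0.483. Equal weight per separation gave 5.85, 2.66, 3.16 and 0.530 in the same order. Pairs at least 10 bins apart gave 2.71 within P, 2.88 within Q and 0.485 between the flanks. Leaving out 2 more bins on each side of the deletion gave 5.91 for P with Q and 2.62 for Q with Q, and leaving out 3 bins beside the ends gave 5.36 for P with Q, 0.502 between the flanks and 13.0 for the corner. The corner was 18.3 with 50 kb and 10.7 with 200 kb. Subtracting the WT map at the level of the deleted bin, chosen after seeing the data, gave 5.96, 2.65, 2.78, 0.476 and 15.8 for P with Q, P with P, Q with Q, the flanks and the corner. Blocks past 1.5-fold numbered 763, of which 477 were higher and 286 lower. In the KR-normalised maps they numbered 335 (40 higher, 295 lower), and on library totals 111 were higher and 565 lower, while a threshold of 2-fold left 231. The insulation difference at the lost boundary was 1.11 with a 200 kb diamond, 0.44 in the KR-normalised maps and 0.17 with both. P with Q stayed above and flank with flank below 1 under every alternative run for them. Counting error is small at these depths, and replicates rather than depth limit what can be said. No paired analysis was possible because each genotype has 1 library.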
